A study of Homo sapiens with 12 samples.

Results

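Human AC16 cells after the longest of 3 exposures to 0.1 µM doxorubicin were compared with cells that received culture medium alone. AC16 is an established line made by fusing adult ventricular heart cells with virus-transformed fibroblasts, and the submitters label it as wild-type cardiomyocytes. The comparison used 6 of the series' 12 RNA-seq libraries, 3 of the treated group and 3 controls, and all genes that passed a low-count filter, 17320 in number. The controls are labelled as DMEM, the growth medium, and carry no drug. The treated group is described as 6 days in the study's design and as 112 hours in the library titles, while 6 days would be 144 hours, and it is called day 6 below. Every title, those of the controls and of the shorter exposures included, also carries the mark Day6, so day 2, day 4 and day 6 name lengths of exposure here, and whether the groups were harvested at the same time is not given in the sources used here. The remaining libraries, 3 after 2 days (48 hours) and 3 after 4 days (96 hours) at the same dose, served to show whether a day 6 level was already present earlier. The labels do not say whether the replicates were separate cultures, so each p-value reflects only how far these libraries varied, and that variation may be technical.

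Doxorubicin is an anthracycline used against cancer whose dose is limited by damage to the heart. It slips between DNA bases and traps topoisomerase II on cut DNA, and the breaks activate p53, a transcription factor that switches on genes for cell cycle arrest, repair and death. Cells that stay arrested with damaged DNA often begin to secrete cytokines, chemokines and matrix-degrading enzymes, a state driven in large part by the transcription factors NF-kB and AP-1. Some of these cells also produce interferon-stimulated genes, which encode antiviral proteins.

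Library totals ran from 14835743 to 17188805 counts in the controls and from 15546671 to 20683081 at day 6. Mitochondrial transcripts took 6.01% to 8.26% of the control counts and 5.77% to 6.8% of those at day 6. Control replicate 2, which has the 8.26%, stood apart from the other controls: the mean chi-square per gene against control replicate 1 was 24.3 and against control replicate 3 it was 15.9, compared with 4.48 between replicates 1 and 3. Its effect is given below wherever it changed a call. The cardiac label is only partly borne out by the heart's defining genes. Of 40 cardiomyocyte markers 15 passed the filter, MYL2 and HAND1 had no count in any of the 6 libraries, and MYH7, the slow myosin heavy chain of the ventricle, had none in the controls. The fibroblast list, by contrast, had 15 of 16 members above the filter, 4 of them higher at day 6 and 8 lower, with a summed level of 8315 to 8947 CPM in the controls and 9190 to 9606 at day 6. Endothelial markers were faint, with 6 of 10 tested, 2 higher, 3 lower and a summed level of 24.6 to 27.3 CPM in the controls and 24.4 to 25.8 at day 6. The part of other cell types in the results was not tested. CPM, counts scaled to a common library size, are taken here on library sizes after trimmed-mean scaling (TMM), so that they compare 1 gene between libraries and not different genes with each other. In bulk RNA, fewer cells of a type and less RNA per cell cannot be told apart.

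By day 6 the expression of 7571 genes (43.7% of those tested) differed from control at an adjusted p under 0.05 in edgeR's quasi-likelihood test, 3810 of them higher (22%) and 3761 lower (21.7%). Changes of at least 2-fold were more often increases: 1342 genes (7.75%) rose and 797 (4.6%) fell that far. The largest increases were in the colony-stimulating factors CSF2 and CSF3, the epithelial transcription factor EHF, complement component C3 and the chemokines CXCL1 and CXCL8, followed by TRIM55, TNFSF15, SERPINA9 and PTCHD4. INHBE, a hepatic activin chain, and SLC7A11, the cystine importer, fell furthest, together with OLFML3, HES1, ERBB3, OLR1, CCN2, CYP1B1 and SLC7A5. These genes are among the 10 largest fitted rises and the 10 largest falls of called genes that reached a mean of 10 CPM in the higher group and did not overlap between groups, as 50.9% of all genes tested did not. Without control replicate 2 the counts were 3682 higher and 3589 lower. The counts of list members against control below are to be read beside the 22% of all genes called higher and the 21.7% called lower.

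**Figure D1:**
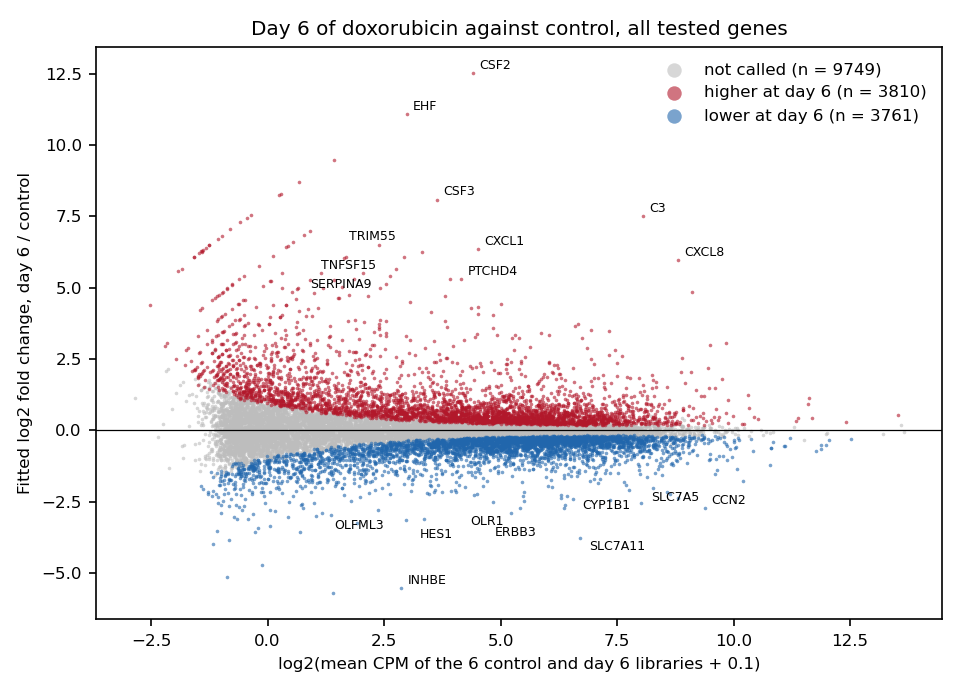
Fitted log2 fold change of day 6 over control (vertical axis) against the mean level of each tested gene in the 6 libraries (horizontal axis, log2 CPM after adding 0.1), 1 point per gene, with the genes of the largest changes that the text names. Red marks the 3810 genes called higher and blue the 3761 called lower; CSF2 and EHF sit at the top and INHBE near the bottom.

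Among the genes with large changes were some that the control libraries barely recorded. A gene was counted as switched on when it had at most 3 counts summed over the 3 controls and at least 10 in each day 6 library, a choice made on the compared values, so that these genes are described without a test against control. There were 57 such genes, against 3 for the same rule with the groups exchanged. Of the 57, 31 are protein-coding, 15 are long intergenic non-coding RNAs, 3 are antisense RNAs, 1 is a sense intronic RNA, 5 are pseudogenes and 2 have no entry in the annotation used. Controls held 0 counts for 14 of them, 1 count for 18, 2 for 14 and 3 for 11. Another 29 genes lay just outside the limit with 4 or 5 control counts, and CSF3 was one of these. At day 6, 26 of the 57 had a mean below 1 CPM and 31 had 1 CPM or more. The rule depended strongly on its limits: 14 genes met it with no control count at all, 151 with up to 9 control counts and 21 with at least 20 counts in every day 6 library. With 1 control library left out it found 89 to 94 genes.

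CSF2 (chr5:132073790-132076170, plus strand, GRCh38) encodes GM-CSF, a growth factor for granulocytes and macrophages. Its counts were 0, 0 and 0 in the controls, and 762, 744 and 874 at day 6. This is 46.4, 40.5 and 40.5 CPM, at least 675-fold higher than the floor of 3 counts over the control group. The gene was already on at day 2 with 2.67, 3.29 and 4.50 CPM and at day 4 with 36.2, 29.3 and 54.5 CPM. Day 6 exceeded day 2 by 3.61 ± 0.24 on the log2 scale (SE, adjusted p = 1.05e-07, higher in 3 of 3 libraries), while the difference from day 4 was 0.08 ± 0.19 (adjusted p = 0.854).

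EHF (chr11:34621093-34661057, plus strand) encodes an ETS-family transcription factor best known from epithelia. It too had 0 counts in all 3 controls, then 0.706, 0.616 and 0.901 CPM at day 2, 2.21, 3.48 and 2.2 at day 4, and 14.8, 16.1 and 16.1 at day 6. No day 6 library overlapped any earlier one, and day 6 was at least 251-fold above the control floor. The step from day 4 to day 6 was 2.58 ± 0.18 on the log2 scale (adjusted p = 7.01e-09), the largest of any gene that met the naming conditions. Other epithelial markers did not all follow. Of 14 tested members of the epithelial list, EHF included, 6 were higher than control, among them the tight junction gene CLDN1 (2.09 ± 0.14) and the keratins KRT19 (1.70 ± 0.17) and KRT7 (1.77 ± 0.32), 5 were lower, and KRT5 had no count in either group.

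Other switched-on genes were of mixed function. MMP1, the interstitial collagenase, had 1 count in the controls, in replicate 2, and 61, 72 and 65 counts at day 6. The ratio was 169, with a 95% counting interval of 29.9 to 6692, and the shorter exposures had fewer counts: day 2 held 4, 3 and 1, and day 4 held 14, 19 and 40. CYP4F2, a fatty acid hydroxylase, had 1 control count and 67, 54 and 58 counts at day 6. ABCA13, a large lipid transporter, had none and then 67, 51 and 46. DMBT1, a secreted scavenger-receptor protein of mucosa, went from 1 control count to 35, 50 and 52. CYP3A7, the fetal form of a drug-metabolizing enzyme, had 2 control counts, 1, 5 and 8 at day 2, 6, 2 and 2 at day 4, and 46, 29 and 25 at day 6. Reads of CYP3A7 may be shared with its near-identical neighbours, so its level is uncertain. The cyclin CCND2 was switched on as well, with 1 control count and 18, 26 and 22 at day 6.

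The switched-on genes differed in when their group mean was highest. In 36 the group mean was highest at day 6, in 19 at day 2 and in 2 at day 4. A highest mean is not a called difference: of the 55 tested, 22 were called higher than at day 2 and 8 lower. Against day 4, 14 were called higher and 0 lower. The shares of all genes were 19.8% and 23% against day 2, and 3.05% and 3.73% against day 4. In 29 of the 57, every day 2 library already held at least 10 counts, and in 20 every day 4 library did. The rule required counts at day 6, which favours that group, so these numbers are a description and the genes as a set were not tested against the shorter exposures. DRAXIN, an axon guidance factor, was highest at day 2. It had 82, 64 and 90 counts at day 2 and 22, 20 and 22 at day 6, against 3 in the controls. ASPA, the enzyme that splits N-acetylaspartate, had 43, 47 and 45 counts at day 2, 6, 6 and 5 at day 4, and 20, 19 and 24 at day 6, so that its day 6 counts lay between those of day 4 and day 2. TREM2, a receptor of macrophages and microglia, was also highest at day 2. All 3 switched-off genes were weak: SOWAHD went from 30, 19 and 27 control counts to 0, 2 and 1, TMEM31 from 12, 17 and 12 to 1, 2 and 0, and the third has no gene symbol.

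**Figure D2:**
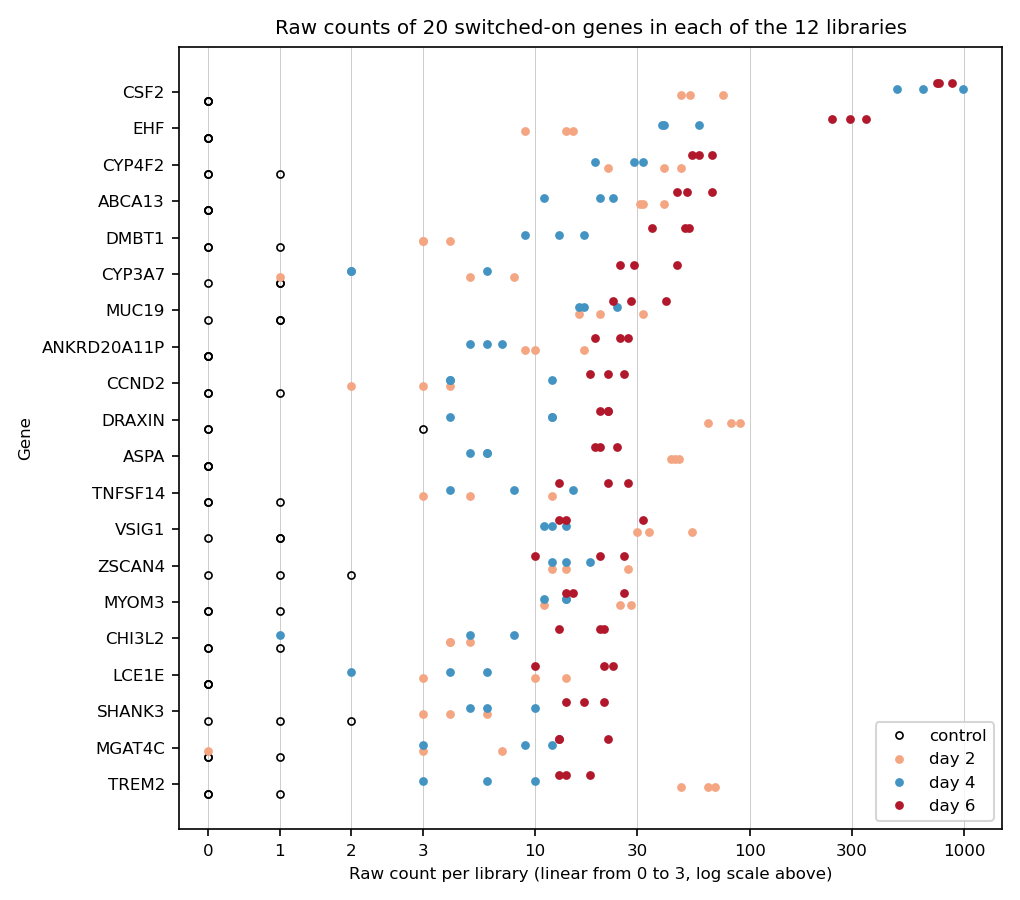
Raw counts per library (horizontal axis, linear from 0 to 3 and logarithmic above) for 20 switched-on genes, with 3 open circles for the controls and 3 filled circles for each exposure. The controls lie at 0 to 3 counts by the rule, CSF2 and EHF separate from the others at day 6, and DRAXIN, ASPA and TREM2 have their highest counts at day 2.

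The promoters of 3 strongly increased secreted factors are shown because the genes moved together and their regulation by NF-kB is textbook knowledge. The sequences are RefSeq windows upstream of the start (GRCh38.p14), plus strand, 5′ to 3′, cut where either annotation places the first transcribed base. Capitals mark matches to a kappaB motif, GGANNTNCC, or to the AP-1 motif TGANTCA, both searched on both strands.
CSF2, chr5:132073539-132073788: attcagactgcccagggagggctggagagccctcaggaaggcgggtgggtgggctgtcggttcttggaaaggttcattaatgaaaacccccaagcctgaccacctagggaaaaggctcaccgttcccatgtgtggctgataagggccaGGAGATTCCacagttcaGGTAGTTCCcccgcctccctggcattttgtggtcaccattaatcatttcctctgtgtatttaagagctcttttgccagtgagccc
CXCL8, chr4:73740319-73740505: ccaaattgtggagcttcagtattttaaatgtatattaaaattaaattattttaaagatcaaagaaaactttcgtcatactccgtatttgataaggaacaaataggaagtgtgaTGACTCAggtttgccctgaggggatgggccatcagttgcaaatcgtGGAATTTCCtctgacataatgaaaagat
CXCL1, chr4:73869143-73869392: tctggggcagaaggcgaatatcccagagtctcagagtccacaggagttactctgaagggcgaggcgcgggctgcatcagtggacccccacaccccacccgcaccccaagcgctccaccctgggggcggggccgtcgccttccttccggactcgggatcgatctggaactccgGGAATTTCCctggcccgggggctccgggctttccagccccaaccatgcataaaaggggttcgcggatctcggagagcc
CSF2 holds 2 kappaB matches, the second on the minus strand and both within 102 bases of the RefSeq start. CXCL8 and CXCL1 share the same 9 letters, GGAATTTCC, at 91 and 78 bases before their starts, and CXCL8 alone of the 3 has an AP-1 match, at 137 bases. No kappaB match overlapped an AP-1 match in these windows. In full windows of 250 bases, a kappaB match was present in 13.4% of 27305 RefSeq promoters, in 8 of the 31 switched-on genes that have one (25.8%) and in 3 of 7 among the 10 largest rises (42.9%). Those 3 rises are CSF2, CXCL8 and CXCL1, shown here with their regulation known, so the 42.9% adds nothing beyond them. CSF2 is also one of the 8. Among the 10 largest falls a kappaB match was present in 1 of 4 (25.0%), about the share of the switched-on genes. An AP-1 match was present in 6.6% of all promoters and in 3 of the same 31 (9.7%). The window of EHF held neither set of letters. These matches describe letters and show no binding.

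CXCL8 and CXCL1 belong to a cluster of 9 protein-coding chemokine genes within 358.8 kb of chromosome 4 (chr4:73740506-74099293) whose products attract neutrophils. The cluster was singled out after its values were seen. In 6 of the 9 genes the counts passed the filter, and all 6 were higher than control at day 6. PF4V1 and PPBP had no count in any of the 12 libraries, and PF4 had 1, in a control, although they lie between the others.

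CXCL8 (interleukin-8) had 15.7, 13.3 and 13.1 CPM in the controls and 790, 916 and 939 at day 6. The groups were far apart, with a change of 5.97 ± 0.11 on the log2 scale (adjusted p = 3.67e-23). Its group means were 14 ± 1.41, 95.8 ± 4.81, 616 ± 34.5 and 882 ± 80.1 CPM (SD, n = 3) in control and at days 2, 4 and 6, and day 6 was above day 4 by 0.52 ± 0.08 (adjusted p = 0.000287). CXCL1 had 0.568, 0.657 and 0.396 CPM in the controls and 46.3, 42.9 and 46.5 at day 6. It rose by 6.37 ± 0.19 but stood at 50.1 ± 3.51 CPM already at day 4, and the day 4 to day 6 difference, -0.15 ± 0.11, was not called (adjusted p = 0.474).

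The neighbours in the cluster differed in how day 6 compared with day 4. CXCL6 measured 0.170, 0.460 and 0.330 CPM in the controls and 9.57, 10.6 and 10.1 at day 6, and exceeded its day 4 level by 1.74 ± 0.19 (adjusted p = 3.66e-06). CXCL5 had 14, 18.9 and 14.5 CPM at day 6 against a control mean of 0.694 ± 0.196, and was 1.20 ± 0.16 above day 4 (adjusted p = 2.62e-05). For CXCL3 the change from control was 2.76 ± 0.27, and day 6 was not called different from day 4 (0.25 ± 0.21, adjusted p = 0.547). CXCL2 moved least: from 4.48, 3.48 and 5.09 CPM to 5.91, 5.99 and 6.48, a rise of 0.50 ± 0.17 (adjusted p = 0.0197). Its day 6 level was below that of day 4 (9.11 ± 1.07 CPM at day 4, -0.57 ± 0.16, adjusted p = 0.0258), a call that was lost without day 4 replicate 1 (-0.48, adjusted p = 0.149) or 3 (-0.57, adjusted p = 0.0702) or any of the day 6 replicates (adjusted p from 0.0519 to 0.0978). The CXCL2 call against control was lost without control replicate 2 (0.36, adjusted p = 0.114) or day 6 replicate 3 (0.45, adjusted p = 0.068). CXCL1, CXCL2 and CXCL3 are close copies of each other, so counts may have been divided between them. In the RefSeq windows of 250 bases, CXCL6 had 2 kappaB matches and CXCL5, CXCL3 and CXCL2 had 1 each. With these windows cut as for the printed promoters, 0 matches remained in any of these genes. The matches of CXCL8 and CXCL1 remained after that cut.

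**Figure D3:**
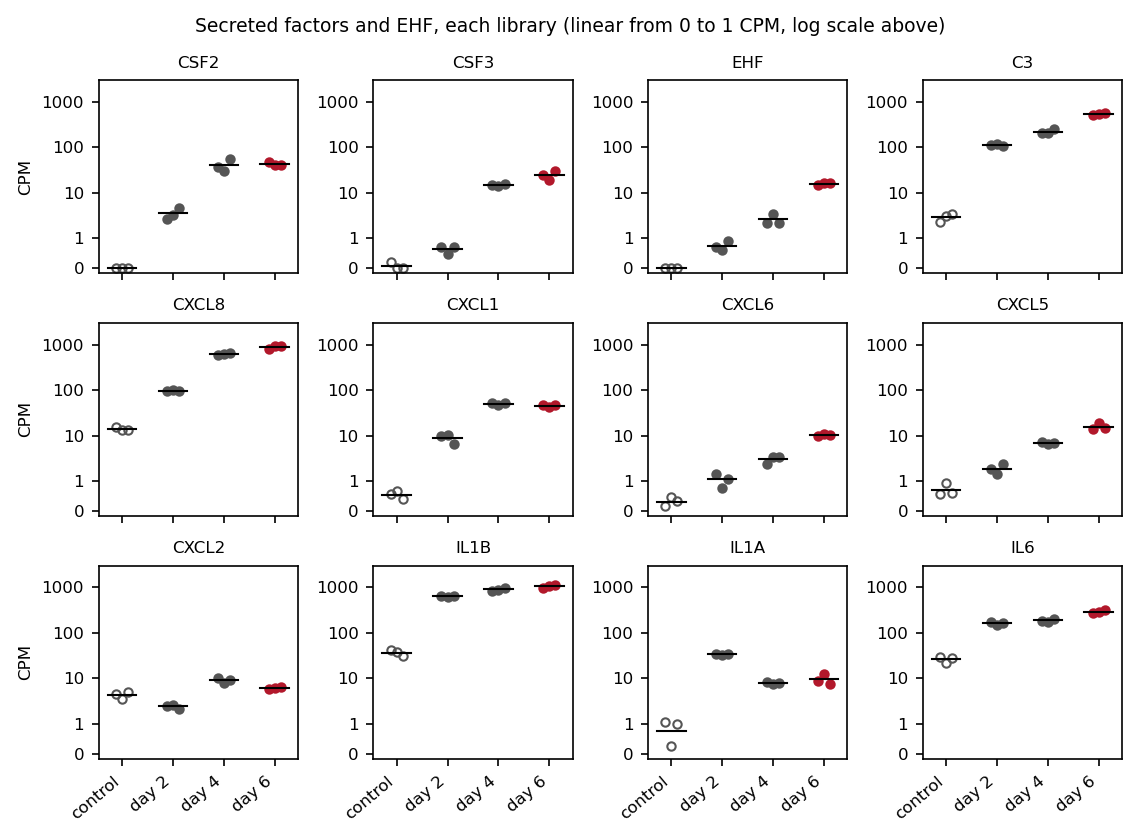
CPM of 12 genes in each of the 12 libraries (vertical axis, linear from 0 to 1 CPM and logarithmic above; horizontal axis, group), with open circles for controls, red for day 6 and black bars for group means. CSF2 and CXCL1 are as high at day 4 as at day 6, whereas EHF, C3, CXCL6 and CXCL5 are higher in every day 6 library than in any day 4 library, and IL1A peaks at day 2.

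Genes for inflammatory secretion and NF-kB targets rose widely: 35 of the 46 that were tested did so, and VCAM1, RELA and CCL26 fell. The median change was 1.12 on the log2 scale against -0.01 for all genes tested. None of the 3 falls held in every fit with a library left out. VCAM1 (-0.96) was not called without control replicate 2 (-0.79, adjusted p = 0.0959), day 6 replicate 1 (-0.88, adjusted p = 0.0616) or day 6 replicate 2 (-0.91, adjusted p = 0.0592), and CCL26 (-0.91) was called only in the fit without day 6 replicate 1, with adjusted p from 0.0586 to 0.201 in the others. Interleukins and growth factors moved most, with 10 of 12 higher and a median of 3.25. CSF3 (chr17:40015361-40017813), which encodes the granulocyte growth factor G-CSF, had 0.227, 0 and 0 CPM in the controls and 24.2, 19.3 and 30.1 at day 6. All 4 of its control counts were in replicate 1, so the fitted change of 8.09 ± 0.34 rests on that library. Without control replicate 1 the fit gave 11.73, which depends on the model's prior count because the other controls hold no count.

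IL1B, the main secreted interleukin-1, had 42.1, 38.2 and 30.3 CPM in the controls and 981, 1047 and 1151 at day 6, a rise of 4.84 ± 0.11 (adjusted p = 8.48e-21). Day 6 was not called different from day 4 (0.24 ± 0.09, adjusted p = 0.124). IL1A, its cell-bound relative, behaved otherwise: it averaged 34.0 ± 1.29 CPM at day 2 and 9.49 ± 2.47 at day 6, still 3.57 ± 0.26 above control but 1.84 ± 0.16 below day 2 on the log2 scale. IL6 rose from 28.7, 21.9 and 27.3 CPM to 270, 293 and 316, or by 3.49 ± 0.11, and by 0.64 ± 0.09 over day 4 (adjusted p = 0.00011). IL24, a cytokine of the IL-10 family, was named for its day 6 to day 2 difference and had 45.5, 47.5 and 65.3 CPM at day 6 against a control mean of 4.29 ± 1.78 and a day 2 mean of 5.35 ± 1.09. CCL2, a monocyte attractant, rose by 1.03 ± 0.10, from a mean of 68.0 ± 1.36 to 139 ± 8.15 CPM.

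Regulators of NF-kB rose less than the secreted factors, with 11 of 14 higher, 1 lower and a median of 0.65. TNFAIP3, an inhibitor that NF-kB itself induces, was among those that rose, with 19.6, 17.9 and 21.1 CPM in the controls and 213, 242 and 219 at day 6 (3.52 ± 0.12). RELA, which encodes a subunit of NF-kB itself, was 0.27 ± 0.09 lower (adjusted p = 0.0224). That call was lost without control replicate 2 (-0.18, adjusted p = 0.115), day 6 replicate 1 (-0.27, adjusted p = 0.0582) or day 6 replicate 2 (-0.21, adjusted p = 0.119). ICAM1, an adhesion molecule for leukocytes, rose by 1.70 ± 0.09 over control and was 0.70 ± 0.09 below its day 4 level (adjusted p = 1.49e-05). Markers of blood and immune cells gave little signal beside this: 4 of 12 passed the filter, CD3E, HBA1 and HBA2 had no count in either group, and the summed level of the list was 5.88 to 8.34 CPM in the controls and 13.7 to 15.8 at day 6. CD68, a lysosomal protein often used as a macrophage marker, was 1.6 ± 0.23 higher and CD14, a monocyte receptor, was 2.31 ± 0.49 lower. Their part in the secretory result was not tested.

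C3 (chr19:6677704-6730562, minus strand), the central protein of complement, was also among the 10 largest rises. The controls measured 2.27, 3.09 and 3.43 CPM and the day 6 libraries 506, 543 and 551, a rise of 7.52 ± 0.13 (adjusted p = 3.67e-23). It was higher at each longer exposure, from 112 ± 7.02 CPM at day 2 and 220 ± 26.2 at day 4 to 533 ± 23.8, and exceeded day 4 by 1.27 ± 0.09 (adjusted p = 2.92e-09). The complement genes as a group were mixed, with 6 of 14 higher and 3 lower. CD55, which protects cells from complement, fell from 73.6, 77.0 and 76.2 CPM to 35.3, 39.3 and 37.9 (-1.01 ± 0.08), and CLU, another inhibitor, fell by 1.16 on the log2 scale. C1QTNF1, a secreted relative of C1q, rose by 4.72 ± 0.23. Coagulation and fibrinolysis genes rose more evenly, 9 of 12 higher and 1 lower with a median of 1.38. F3, tissue factor, the starter of clotting, went from 220, 191 and 219 CPM to 913, 886 and 824 (2.06 ± 0.09). SERPINE2, a thrombin inhibitor, measured 140 ± 8.70 CPM in the controls and 481 ± 21.9 at day 6, and 222 ± 4.64 at day 4 (day 6 over day 4, 1.11 ± 0.08, adjusted p = 2.92e-09). TFPI2, an inhibitor of the tissue factor pathway, rose by 2.01 ± 0.10.

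Of 34 p53 targets all were tested, and 29 were higher, 2 lower and 3 not called, with a median of 1.88. CDKN1A, the p21 inhibitor that halts the cell cycle, had 201, 227 and 165 CPM in the controls and 1491, 1655 and 1781 at day 6, a rise of 3.05 ± 0.11 (adjusted p = 3.48e-17). MDM2, which marks p53 for destruction, rose from 162 ± 14.6 to 1279 ± 124 CPM (2.98 ± 0.10). Further members were CYFIP2 (4.34 ± 0.13), a regulator of actin, and TP53I3 (3.34 ± 0.11), an oxidoreductase. The 2 that fell were PLK2, a kinase, by 0.39, and PMAIP1, the death protein NOXA, by 0.38 on the log2 scale. Compared with day 2 the response was smaller: 23 of the 34 were lower at day 6 and 2 higher, beside 23% and 19.8% of all genes. CDKN1A was 0.49 ± 0.10 and MDM2 0.80 ± 0.09 below day 2. Against day 4, 6 members were higher and 0 lower, beside 3.05% and 3.73% of all genes, and the 6 were 3 without day 6 replicate 2.

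Genes of death and survival moved in both directions. Of 33 apoptosis genes tested, 16 rose and 4 fell, beside 22% and 21.7% of all genes. FAS, a death receptor and p53 target, went from 6.98, 6.63 and 7.33 CPM to a mean of 33.5 ± 3.49 (2.26 ± 0.11). TNFRSF10C, a decoy receptor for the ligand TRAIL, rose by 3.74 ± 0.20 and BIRC3, an inhibitor of apoptosis, by 1.41 ± 0.11. BCL2, the founding survival gene of its family, stood at 9.14 ± 0.774 CPM in the controls and 5.75 ± 0.408 at day 6 (-0.67 ± 0.16). Its level at day 6 was above that of both earlier times, by 1.09 ± 0.18 over day 4 (adjusted p = 0.000463) and 1.28 ± 0.18 over day 2.

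Cell division genes and DNA replication genes differed in extent. Of 52 genes of mitosis and the G2/M phase, 49 were lower than control and 0 higher, with a median of -0.98, against 21.7% of all genes lower. KIF20A, a kinesin of cell separation, had 145, 167 and 165 CPM in the controls and 27.7, 29.7 and 32.4 at day 6, a fall of 2.40 on the log2 scale (SE 0.09). CCNB1, the mitotic cyclin, went from 215 ± 17.4 to 65.7 ± 3.00 CPM (-1.71 ± 0.08), and MKI67, the proliferation marker Ki-67, from 1157 ± 48.2 to 405 ± 22.9 (-1.51 ± 0.08). The list also fell between day 4 and day 6, with 38 of 52 members lower and 0 higher, beside 3.73% and 3.05% of all genes. Against day 2, 26 were lower and 10 higher, beside 23% and 19.8% of all genes, with a median of -0.22. The summed level of the list was 5914 to 6258 CPM at day 2, 7098 to 7405 at day 4 and 5225 to 5414 at day 6. PLK1, a kinase that drives entry into mitosis, had 57.0, 57.2 and 73.2 CPM at day 4 and 24.3, 26.3 and 30.7 at day 6 (-1.20 ± 0.12, adjusted p = 1.55e-06).

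Among 46 replication and S phase genes, 22 were lower than control, 5 higher and 19 not called, with a median of -0.20. The rise of DTL (0.19) was lost in every fit with a library left out except that without control replicate 3. Against day 2, 27 were higher and 2 lower, beside 19.8% and 23% of all genes. Against day 4, 6 were higher and 0 lower, beside 3.05% and 3.73%, and the 6 were 2 without day 6 replicate 1 and 3 without day 6 replicate 2. MCM6, a subunit of the replicative helicase, measured 168, 164 and 179 CPM in the controls, 70.4 ± 9.78 at day 2 and 98.9, 103 and 95.6 at day 6, so it was 0.78 ± 0.09 below control and 0.49 ± 0.09 above day 2. GINS4, another helicase subunit, was above control (0.60 ± 0.08) as was PCNA, the sliding clamp and a p53 target (0.47 ± 0.08). Histone genes of S phase were low in these libraries: 14 of 30 passed the filter, 9 fell and 0 rose. Non-polyadenylated histone messages depend on the library method, and histone copies can share reads.

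**Figure D4:**
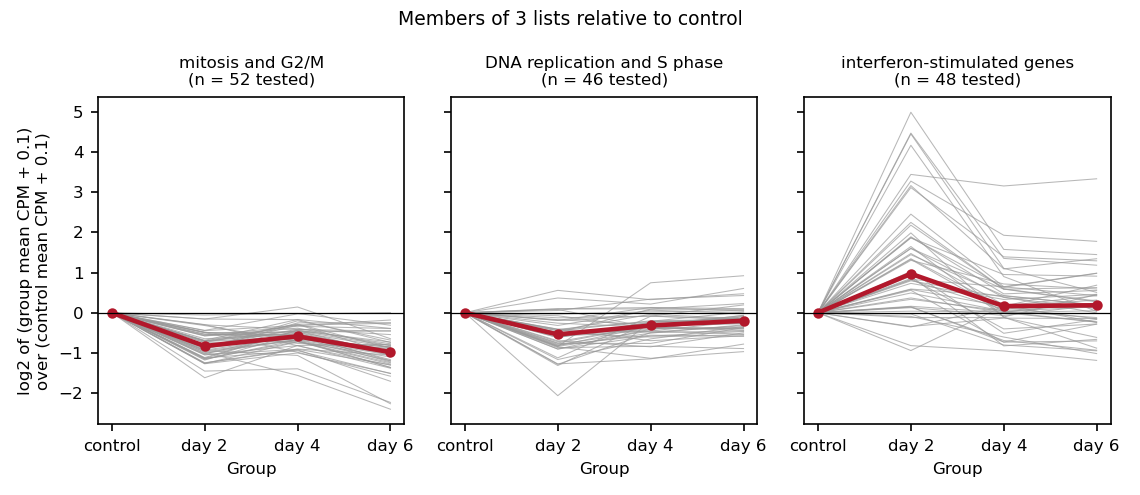
Log2 of group mean CPM over control mean CPM (0.1 added to both; vertical axis) in control and at days 2, 4 and 6 (horizontal axis), 1 grey line per tested gene and the median in red, for mitosis, replication and interferon-stimulated genes. By their medians, mitosis genes are lowest at day 6 and replication genes climb back toward control after day 2. The interferon genes' day 2 peak is gone by day 4. Of the mitosis genes, 10 are called higher at day 6 than at day 2.

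Interferon-stimulated genes were largely back near control at day 6. Of 48 tested, 15 were higher and 8 lower with a median of 0.19, beside 22% and 21.7% of all genes. Without control replicate 2, 9 were higher, a share near the background. IFIT2, which blocks translation of viral RNA, had 13.7, 14 and 17.4 CPM in the controls, 309, 240 and 270 at day 2, and 20.8, 14.2 and 11.3 at day 6. The day 6 and control libraries overlapped (0.02 ± 0.19, adjusted p = 0.933), while day 6 was 4.16 ± 0.18 below day 2. IFIT1, a sensor of foreign RNA caps, ended below control, at 9.69, 7.47 and 6.58 CPM against 13.3, 15.8 and 14.9 (-0.90 ± 0.14). ISG15, a ubiquitin-like protein, was still 1.20 ± 0.24 above control, and OASL, an antiviral sensor partner, 1.52 ± 0.21. TRIM22, which is also a p53 target, stayed high at 127, 123 and 111 CPM against 11.5, 10.6 and 13.4 (3.35 ± 0.11). In all, 38 of the 48 were lower at day 6 than at day 2 and 2 were higher, beside 23% and 19.8% of all genes. The gene for interferon beta, IFNB1, had no count in the controls or at day 6.

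Antigen presentation by MHC class I was modestly higher. Of 20 tested genes 12 rose, 0 fell and the median was 0.43. TAP1, the peptide transporter, went from 16.9, 18.3 and 16.1 CPM to 32.0, 31.5 and 35.3 (0.95 ± 0.11), and B2M, the light chain, rose by 0.51 ± 0.10. HLA-B varied so much between libraries (7.15 to 17 CPM in the controls, 9.81 to 26.8 at day 6) that no difference was detectable. Reads of HLA genes depend on how well a line's alleles match the reference.

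Matrix genes split by kind. Collagens were even, with 7 of 17 higher and 7 lower, while 11 of 15 matrix enzymes and inhibitors were higher and 1 was lower. LAMA4, a laminin chain of vessel and muscle basement membranes, had 32.2, 26.7 and 24.6 CPM in the controls and 198, 208 and 207 at day 6, a rise of 2.87 ± 0.10, and 1.26 ± 0.09 of it came after day 4 (adjusted p = 3.72e-09). LAMB3, an epithelial laminin chain, rose by 3.72 ± 0.11, COL7A1, the anchoring-fibril collagen, by 3.22 ± 0.11, and MMP14, a membrane-bound collagenase, by 1.83 ± 0.07. Interstitial collagens went down: COL11A1 fell by 2.43, COL3A1 by 0.82 and COL1A1 by 0.28 on the log2 scale. The COL1A1 call was lost without day 6 replicate 2 (-0.21, adjusted p = 0.0853). LUM, a collagen-binding proteoglycan, went from 211, 206 and 221 CPM to 57.5, 63.7 and 55.1 (-1.86 ± 0.09). POSTN, periostin, was at 138 ± 10.1 CPM in the controls, 462 ± 39.8 at day 2 and 187 ± 14.4 at day 6.

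In TGF-beta signalling and its targets, 11 of 33 tested genes rose and 16 fell. INHBE had 14.2, 17.4 and 10.8 CPM in the controls and 0.426, 0.163 and 0.324 at day 6, the largest fall of the named genes (-5.52 ± 0.31), reached by day 2. INHBA, the activin A chain, rose instead, from 47.1, 40.6 and 42.6 CPM to 304, 316 and 309 (2.83 ± 0.09). CCN2, connective tissue growth factor, dropped from 1224, 1157 and 1083 CPM to 175, 179 and 172 (-2.72 ± 0.09), with a further step of -0.79 ± 0.09 after day 4 (adjusted p = 4.35e-06). Smooth muscle genes were divided, with 6 of 16 up and 6 down. ACTA2, smooth muscle actin, went from 8.63, 12.4 and 9.25 CPM to 112, 103 and 106 (3.41 ± 0.11), and MYOCD, myocardin, an activator of such genes, rose by 2.00 ± 0.09. CNN1, calponin, fell by 1.22 and TAGLN, transgelin, by 0.36 on the log2 scale. ACTA2 and FAS are neighbours that partly overlap on opposite strands of chromosome 10, and since the counting's strand setting is not given in the sources used here, their reads cannot be told apart where they overlap.

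Sterol and amino acid supply genes were low. Of 28 cholesterol genes 23 were lower and 1 higher (TM7SF2), with a median of -1.05. INSIG1, a brake on sterol synthesis that sterol-regulated factors induce, had 641, 599 and 620 CPM in the controls and 135, 137 and 141 at day 6 (-2.17 ± 0.09). HMGCS1, an early enzyme, fell by 1.5 on the log2 scale. The TM7SF2 rise (0.52 ± 0.18) was lost without day 6 replicate 3 (adjusted p = 0.104), control replicate 1 (adjusted p = 0.0548) or control replicate 2 (adjusted p = 0.0571).

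Of 37 genes tied to the stress factor ATF4 and to amino acid supply, 31 fell and 2 rose, with a median of -1.03, and all 13 transporters and tRNA ligases of the list fell. The rise of ALDH18A1 (0.20) was lost without day 6 replicate 1 or 2 or control replicate 3. That of ATF5 (0.34) was lost without replicate 1 or 3 of either group. SLC7A11 measured 218, 142 and 226 CPM in the controls and 15.1, 15.6 and 12.7 at day 6 (-3.76 ± 0.22). SLC7A5, a carrier of large neutral amino acids, was at 431, 449 and 444 CPM and then 78.1, 68.7 and 78.8 (-2.55 ± 0.09). At day 2 it still stood at 475 ± 22 CPM, so the drop lay between days 2 and 4, with -0.67 ± 0.08 more by day 6 (adjusted p = 1.81e-05). TRIB3, a pseudokinase of the stress response, fell by 2.32 and PSAT1, of serine synthesis, by 1.91 on the log2 scale. Among 37 genes of NRF2 and oxidative stress, 19 fell and 8 rose. NFE2L2, which encodes NRF2, went from 198, 201 and 198 CPM to 92.9, 97.4 and 93.5 (-1.07 ± 0.07), and NQO1, a quinone reductase, from 129 ± 4.42 to 45.0 ± 1.80 (-1.52 ± 0.08). SOD2, the mitochondrial superoxide dismutase and an NF-kB target, rose from 152, 124 and 145 CPM to 775, 865 and 792 (2.53 ± 0.11).

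**Figure D5:**
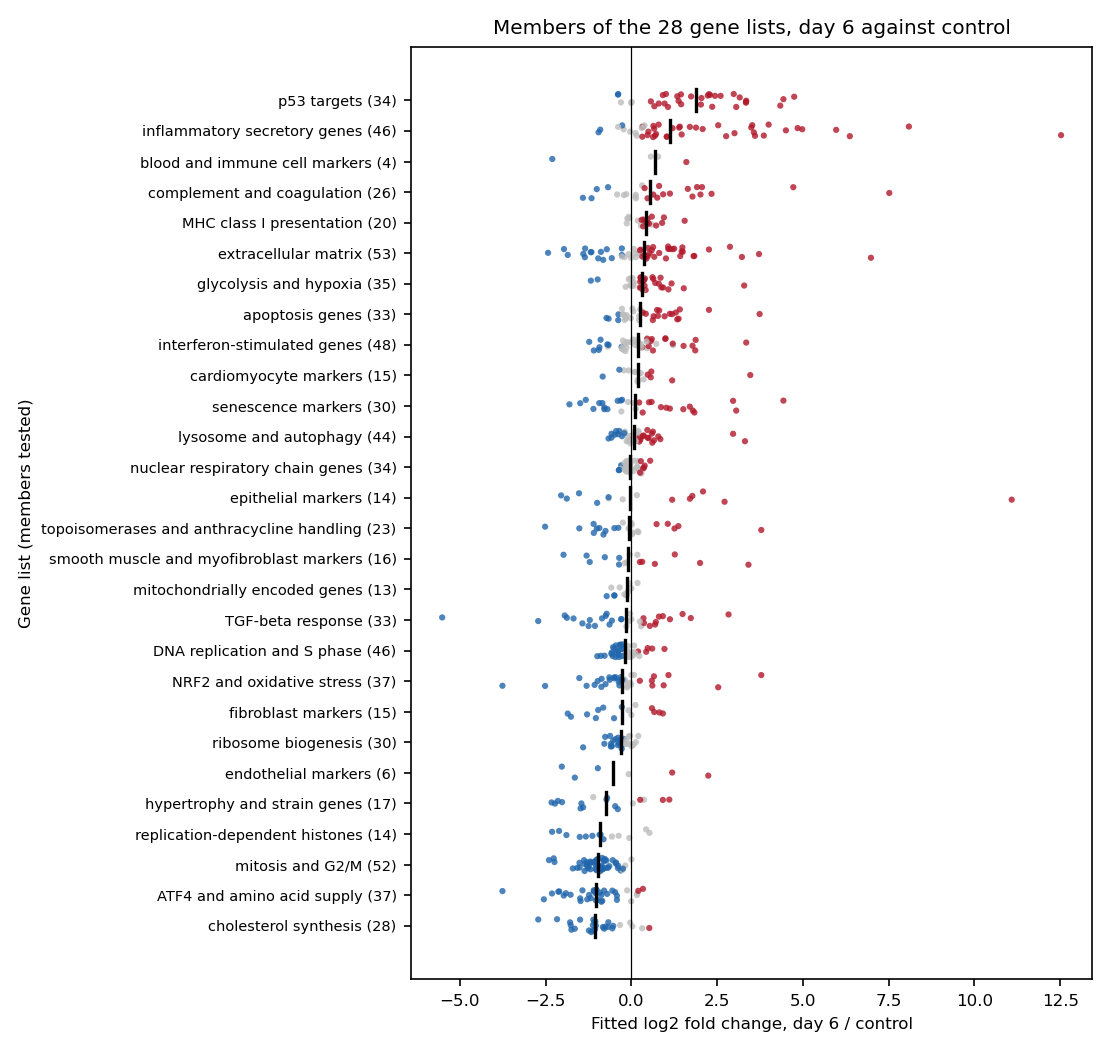
Fitted log2 fold change of day 6 over control (horizontal axis) for every tested member of the 28 gene lists (vertical axis, ordered by median, black bar), red where called higher, blue where called lower and grey where not called. P53 targets and inflammatory secretory genes have the highest medians, and cholesterol, ATF4 and mitosis genes the lowest.

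Of 23 tested topoisomerases and genes of anthracycline handling, 5 rose and 10 fell, beside 22% and 21.7% of all genes, so the share that rose was near the background. AKR1B1, a reductase of the aldo-keto family that can act on anthracyclines, rose from 157, 151 and 155 CPM to 365, 341 and 399 (1.26 ± 0.09). AKR1B10, a relative, rose by 3.79 ± 0.40 from a control mean of 0.185 ± 0.168 CPM, and by 4.38 without control replicate 2. AKR1C3, a family member with close copies that can share reads, fell from 48.7 ± 3.52 to 8.50 ± 0.971 CPM (-2.52 ± 0.12). TOP2A, the topoisomerase II of dividing cells, had 997, 926 and 960 CPM in the controls and 472, 497 and 462 at day 6 (-1.01 ± 0.07). TOP2B, the form found also in non-dividing heart cells, was 0.38 ± 0.08 lower.

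Few heart genes were expressed well enough to be followed. Of the 15 tested cardiomyocyte markers 5 were higher and 2 lower. The summed level of all 40 listed was 805 to 901 CPM in the controls and 1095 to 1129 at day 6. Most of this came from calcium and electrical genes, with 639 to 709 CPM in the controls and 916 to 948 at day 6. Sarcomere genes summed to 12.5 to 18.7 and 20.2 to 24.2 CPM. The 5 markers called higher were 3 without control replicate 2 or day 6 replicate 2, and beside 22% of all genes higher neither count stands out. GJA1, the gap junction protein connexin 43, rose from 134 ± 18.6 to 200 ± 9.27 CPM (0.58 ± 0.09), and ATP2A2, the calcium pump SERCA2, from 525, 459 and 496 CPM to 693, 688 and 676 (0.47 ± 0.07). Of 4 tested sarcomere genes 2 were called higher, ACTN2 and TTN. ACTN2 is one of the switched-on genes, with 0, 2 and 1 counts in the controls and 15, 11 and 17 at day 6. TTN, titin, was 0.56 ± 0.19 higher, lost without control replicate 2 (0.34, adjusted p = 0.0813), day 6 replicate 2 (0.57, adjusted p = 0.0534) or day 6 replicate 3 (0.49, adjusted p = 0.0937). Among hypertrophy and strain genes, 3 of 17 tested were higher and 11 lower. NPPB, the natriuretic peptide BNP that marks strained heart muscle, had 0.908, 0.722 and 0.925 CPM in the controls, 9.78, 5.82 and 7.45 at day 2 and 0.426, 0.381 and 0.370 at day 6. All 3 day 6 libraries lay under all controls, but the difference was not called (-1.11 ± 0.49, adjusted p = 0.0714), while day 6 was 4.28 ± 0.37 below day 2. Immediate early genes, which respond within minutes to growth factors, were low: EGR1 went from 660, 725 and 594 CPM to 120, 151 and 150 (-2.23 ± 0.13), and MYC fell by 1.41 on the log2 scale. Of 30 ribosome biogenesis genes, many of them MYC targets, 19 fell and 0 rose, with a smaller median of -0.29.

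Markers often used for senescence, a lasting arrest, moved in both directions. The list pools markers of gain with markers of loss, so its total does not measure agreement. Of 30 tested, 14 were higher and 12 lower, beside 22% and 21.7% of all genes. Of 13 surface and secreted markers 10 were higher and 1 lower. Of 9 cell cycle inhibitors and pocket proteins 2 were higher and 6 lower, and of 8 nuclear and lysosomal markers 2 and 5. Beside CDKN1A, GDF15, a stress hormone, rose from 2.55, 3.68 and 2.31 CPM to 55.9, 54.8 and 73.0 (4.43 ± 0.16), and was 1.08 ± 0.11 below its day 2 level. LMNB1, lamin B1, whose loss is a common marker, went from 217, 232 and 224 CPM to 83.4, 79.1 and 76.8 (-1.49 ± 0.08), and HMGB2, a chromatin protein, fell by 1.81 on the log2 scale. CDKN2A, the p16 gene, fell from 106, 139 and 113 CPM to 69.6, 64.0 and 73.4 (-0.79 ± 0.15), as did its neighbour CDKN2B (-1.11 ± 0.10). GLB1, which encodes the beta-galactosidase stained in senescent cells, was not called (-0.10 ± 0.09, adjusted p = 0.404). FUCA1, a lysosomal fucosidase and p53 target, rose by 2.96 ± 0.14, and CTSS, cathepsin S, by 3.31 ± 0.19, in a lysosome list in which 16 of 44 genes rose and 9 fell, the falls near the 21.7% of all genes.

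Of 35 glycolysis and hypoxia genes 22 rose and 2 fell, with a median of 0.31. VEGFA, the vessel growth factor, was at 168, 168 and 166 CPM in the controls and 480, 456 and 508 at day 6 (1.53 ± 0.10). Of 34 nuclear genes of the respiratory chain, 6 rose, 4 fell and 24 were not called. Among the 13 protein genes of mitochondrial DNA 3 were lower than control, and this count was 1 without control replicate 2 or day 6 replicate 1 and 5 without control replicate 1. MT-CO2, a subunit of cytochrome oxidase, had 3520, 5297 and 4308 CPM in the controls and 2031, 2875 and 3054 at day 6 (-0.72 ± 0.18, adjusted p = 0.00484).

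Day 6 differed from day 4 in 1174 genes (6.78%), 528 higher and 646 lower, and from day 2 in 7414 genes (42.8%). Changes of at least 2-fold were fewer: 0.468% of genes higher and 0.208% lower against day 4, and 4.94% higher and 4.65% lower against day 2. Groups did not overlap for 27.6% of genes against day 4 and for 52.8% against day 2. These comparisons share the day 6 libraries. The day 4 counts were fragile: each left-out library gave fewer calls, 259 to 431 higher and 307 to 454 lower, and one or both counts moved by more than 1.5 times without any of the day 6 replicates or without day 4 replicate 1 or 3. Beside EHF, C3, CXCL6 and LAMA4, the genes higher at day 6 than at day 4 included RAB27B, a regulator of vesicle secretion, with 13.1, 17.9 and 13.3 CPM at day 4 and 44.1, 53.1 and 45.0 at day 6 (1.68 ± 0.16, adjusted p = 1.55e-06). PTPN22, an immune phosphatase, had 14.8 ± 1.28 CPM at day 2, 6.08 ± 0.407 at day 4 and 14.6 ± 1.30 at day 6, so that its level was lowest of the 3 exposures at day 4. Of the genes lower than at day 4, MT2A, a metallothionein, had peaked at day 4 (286 ± 18.2 CPM) and stood at 139 ± 10.2 at day 6, still 1.27 ± 0.15 above control. TENM2, a cell-adhesion protein, fell at each step after day 2, from 115 ± 11.4 to 53.9 ± 7.28 and 27.6 ± 2.82 CPM. With library totals in place of trimmed-mean scaling the split turned toward higher calls, 1006 higher and 350 lower against day 4 and 5265 higher and 2538 lower against day 2, so the balance of directions in these comparisons depends on the scaling.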

How the data were processed

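The deposited table holds raw counts per gene for the 12 libraries. Per the submitters' processing notes, reads were handled with HTSeq 0.13.5, STAR 2.7.8, fastp 0.23.2 and Trimmomatic 0.38, with roles not stated, on GRCh38.p13, while the strand setting is not given in the sources used here. All 60607 identifiers were read, 43257 received a symbol, and GENCODE 29 gave positions and classes for 58361. Groups came from the library titles. All 12 libraries were fitted together with edgeR 4.0.16 in R 4.3.3: low-count filter by group (minimum count 10, minimum total 15), TMM scaling, robust quasi-likelihood test, Benjamini-Hochberg adjustment over the 17320 genes, threshold 0.05. An SE is the fitted log2 fold change divided by the square root of F. Counting intervals (95%) and the floor of 3 counts cover counting error only. Named genes were the 10 largest rises and falls with at least 10 CPM, the 20 highest switched-on genes with an ordinary symbol, up to 5 members a list and direction by p, a panel, and the 6 largest changes against days 4 and 2. A few of these genes are left out of the text. The members, the 28 lists and the panel were chosen with earlier results of these data known. On simulated data of 16823 genes for day 6 against control, 63.1%, 74.2% and 87.3% of genes changed 1.5-, 2- and 4-fold were recovered, with 7 of 152 calls false. The simulation changed few genes, where the real comparison called 43.7%, and it included no library that stood apart. These rates therefore need not hold for the real data. Alternatives were other scalings and filters, DESeq2 1.42.0, a replicate block, a fit of 2 groups only and each library left out.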

Additional observations from a re-analysis of the deposited data

Results flagged for a closer look

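Each result here was picked out because the effect of doxorubicin differed between times in a test of the difference itself. Against day 4, 528 genes were higher and 646 lower at day 6. On the log2 scale, the named rises over day 4 were 2.58 for EHF, 1.74 for CXCL6, 1.68 for RAB27B, 1.27 for C3, 1.26 for LAMA4 and 1.26 for PTPN22. The named differences downward were -1.30 for KRT34, -1.20 for PLK1, -1.05 for MT2A, -0.96 for TENM2, -0.88 for IFIT2 and -0.88 for ESM1. Against day 2, 3437 genes were higher and 3977 lower. Named rises over day 2 were 5.24 for CSF3, 4.38 for EHF, 3.61 for CSF2, 3.41 for RFX8, 3.31 for IL24 and 3.20 for CXCL8. Named differences downward were -4.16 for IFIT2, -3.96 for IFIT3, -3.57 for OASL, -3.40 for OLR1, -3.31 for ISG15 and -2.90 for IFIT1, 5 of the 6 being interferon-stimulated genes.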

How the results depend on the processing

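Of 272 genes followed through every alternative, 248 kept their direction and side of the threshold, 22 lost a call and 2 gained one in at least 1 alternative, and 0 reversed. Counts of day 6 against control stayed within 1.5 times in every setting. Same-numbered control and day 6 libraries did not deviate together (correlations 0.0076, -0.101 and -0.0875, and 0 of the 3 day 6 libraries correlated best with its own number). With only 3 libraries a group this cannot exclude that the numbers pair them. With the replicate block 3687 genes were higher and 3609 lower. Against day 4, library totals gave 1006 higher and 350 lower, the 2 groups alone 947 higher, and leaving out 1 library 259 to 431 higher and 307 to 454 lower. Against day 2, library totals gave 5265 higher and 2538 lower. The 15 interferon genes called higher were 9 without control replicate 2. The 5 cardiomyocyte markers were 3 with at least 1 CPM in 3 libraries, and 3 to 5 with 1 library left out. The 1 blood marker was 2 with RLE size factors, the 1 CPM filter or 2 groups only, 3 with library totals or no filter, and 2 to 3 with 1 library left out. The 3 mitochondrially encoded genes called lower were 0 without a filter and 1 to 5 with 1 library left out. The 57 switched-on genes were 14 with 0 control counts, 151 with up to 9, 168 with at least 5 counts per day 6 library, 21 with at least 20, and 63 to 94 with 1 library left out, with 89 or more where a control was, since the ceiling then covers 2 controls. The 3 switched-off genes were 0, 20, 16 and 0 under those limits and 3 to 7 with 1 library left out.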

Other observations

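PADI4 and PADI3, peptidylarginine deiminases that convert arginine to citrulline in proteins and lie near each other on chromosome 1, were picked out after their values were seen and had their highest group means at day 2. PADI4 had 0.0568, 0.0657 and 0.132 CPM in the controls, a mean of 11.5 ± 1.71 at day 2, 3.26 ± 0.117 at day 4 and 6.11 ± 0.346 at day 6. PADI3 had 0.126 ± 0.133, 11.5 ± 1.21, 1.93 ± 0.545 and 4.20 ± 0.415 CPM in the same order. Both were higher at day 6 than at day 4, PADI4 by 0.91 ± 0.17 (adjusted p = 0.0016) and PADI3 by 1.12 ± 0.23 (adjusted p = 0.00384) on the log2 scale. The PADI3 change from control, 4.99 ± 0.39, was 5.95 without control replicate 3.

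Classes of non-coding genes differed in their balance of calls at day 6. Of 835 tested long intergenic RNAs, 24% were higher and 10.4% lower than control, with a median of 0.18 on the log2 scale. Of 1258 antisense RNAs, 18.4% were higher and 9.46% lower. Some other classes leaned the same way. Of 226 transcribed unprocessed pseudogenes 48 were higher and 17 lower (median 0.15). Of 221 genes with no entry in the annotation 39 were higher and 18 lower, and of 101 unprocessed pseudogenes 13 and 6. Further classes did not lean that way: 31 of 500 processed pseudogenes were higher and 33 lower (median -0.12). Of 193 sense intronic RNAs 22 were higher and 19 lower (median -0.08), and of 53 sense overlapping RNAs 5 were higher and 9 lower. Of 13282 protein-coding genes, 23.6% were higher and 25.5% lower, with a median of -0.02. The number of genes with at least 1 count was 26261 to 27349 in the control libraries and 29409 to 30474 at day 6. Library totals overlapped between the groups, though some were larger at day 6. Day 6 replicate 1 had 15546671 counts and 29409 such genes, and control replicate 1 had 17188805 counts and 27349. Whether depth has a part in the number of genes was not tested.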
